A study of Mus musculus with 33 samples.

Results

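Microglia are the resident macrophages of the brain. They enter it in the embryo, increase in number by dividing in the first weeks after birth, and then take on the adult homeostatic state, in which the receptors CSF1R and TGF-beta receptor and the factors SALL1 and PU.1 keep up their identity. The cortical part of this maturation was followed here by comparing 4 libraries of cortical (Cx) microglia at postnatal day 42 (P42) with 3 libraries at P7, which are 7 of the 33 libraries of the study. All mice were untreated C57BL6 animals, and the cells were sorted as CD45+, CD11b+ and Gr1-. The P7 group held 2 libraries labelled male and 1 labelled female, and the P42 group 2 of each. The 4 Cx libraries of P10 are given beside them as levels, and the 3 P7 and 4 P42 libraries of the corpus callosum (CC) and of the cerebellum (Cb) serve for the tests between regions. Nothing in the labels or methods says how many animals gave a library or whether each came from its own animal, so p-values measure the spread between these samples, which may in part be technical.

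The 7 libraries held 29286256 to 40575511 reads in genes, so that 1 read was worth 0.0239 to 0.0351 CPM (counts scaled to library size). The summed level of 23 homeostatic microglial genes was 73800 to 80800 CPM at P7 and 150000 to 164000 CPM at P42. Levels are shares of the reads of a library, and in bulk samples fewer cells of a type and less RNA per cell cannot be told apart. The libraries of the ages also differed in composition, with 18412 to 20029 genes detected at P7 and 16445 to 17255 at P42, and with 0.808 to 1.38% and 0.412 to 0.523% mitochondrial reads. The part of these differences in the results below was not tested. The summed level of 18 genes of the response to tissue dissociation was 356 to 529 CPM at P7 and 900 to 1210 CPM at P42.

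Of 20917 genes tested, 504 were higher and 992 lower at P42 (edgeR quasi-likelihood test, adjusted p of 0.01 or less and a log2 fold change of at least 1 in size, which is what "called" means below). These are 2.41% and 4.74% of the genes tested, and every count of list members is to be read against those shares. The P7 and P42 libraries did not overlap for 501 of the genes called higher and 989 of those called lower. Over all 20917 genes tested, called or not, 2510 were higher and 3665 lower at P42 without overlap. Of the genes called lower, 77 had no read in any P42 library. The median log2 fold change over all genes tested was -0.09.

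**Figure D1:**
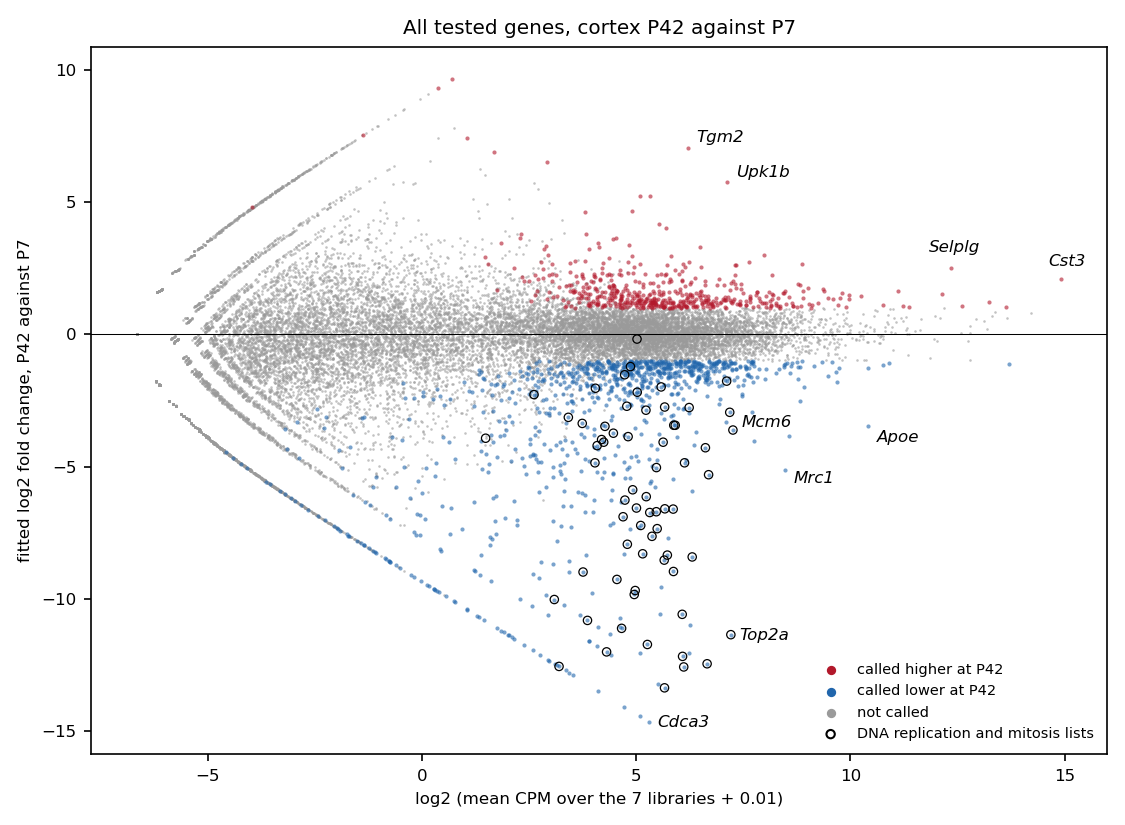
Each point is a gene, with its mean level in the 7 libraries on the x axis (log2 CPM) and its fitted log2 fold change, Cx P42 against P7, on the y axis. Red points are called higher and blue points lower at P42, and circles mark the members of the DNA replication and mitosis lists, most of which lie far below 0.

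The DNA replication and mitosis lists had the lowest medians of the 27 pathway lists. Dividing cells copy their DNA with the MCM helicase, the clamp PCNA and nucleotides made by ribonucleotide reductase, and then segregate it with cyclin B, CDK1, the Aurora kinases and the kinetochore. Of the 30 members of the DNA replication list 29 were called lower and 0 higher, with a median log2 fold change of -3.46. Of 35 tested members of the mitosis list 34 were called lower and 0 higher, with a median of -7.94. The member of the replication list that was not called was Orc1, a subunit of the origin recognition complex, at 5.99 CPM at P7 and 0.389 CPM at P42 (adjusted p = 0.023). In the mitosis list it was Espl1, the protease separase, at 34.7 ± 4.29 CPM (SD, n = 3) at P7 and 30.7 ± 5.27 CPM (n = 4) at P42.

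Promoters of the division genes are shown here because the members of these lists moved together. Cell cycle promoters are known to carry the cell cycle homology region (CHR), bound by the DREAM and MuvB complexes, CCAAT boxes, bound by NF-Y, and E2F sites. The promoters printed are those of the 4 members of the cell division lists called lower with the highest mean level over the 7 libraries, limited to the 250 bases before the start site, read 5′ to 3′ on the strand of the gene from RefSeq (GRCm38.p6). Capitals mark matches, on either strand, to the CHR (TTTGAA or TTCGAA), the CCAAT box (CCAAT) or an E2F site (TTTCCCGC, TTTGGCGC, TTTCGCGC or TTTGGCGG), and E2F letters can overlap each other.
Top2a, chr11:99024190-99024439, minus strand: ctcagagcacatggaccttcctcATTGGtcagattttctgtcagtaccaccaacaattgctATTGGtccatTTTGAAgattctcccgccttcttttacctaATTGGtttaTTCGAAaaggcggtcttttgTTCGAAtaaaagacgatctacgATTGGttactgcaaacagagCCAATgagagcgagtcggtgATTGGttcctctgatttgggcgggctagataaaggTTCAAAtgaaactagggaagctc
Mcm6, chr1:128359706-128359955, minus strand: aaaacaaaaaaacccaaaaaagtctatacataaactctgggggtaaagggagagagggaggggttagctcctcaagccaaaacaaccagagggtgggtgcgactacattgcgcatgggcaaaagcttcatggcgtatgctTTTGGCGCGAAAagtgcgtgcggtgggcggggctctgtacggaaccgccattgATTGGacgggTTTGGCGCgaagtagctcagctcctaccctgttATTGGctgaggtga
Rrm1, chr7:102441445-102441694, plus strand: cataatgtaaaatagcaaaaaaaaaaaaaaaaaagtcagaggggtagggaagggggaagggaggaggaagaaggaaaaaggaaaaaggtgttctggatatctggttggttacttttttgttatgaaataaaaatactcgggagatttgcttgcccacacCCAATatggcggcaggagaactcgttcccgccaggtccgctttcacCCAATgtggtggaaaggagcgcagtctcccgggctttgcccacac
Cdk4, chr10:127063285-127063534, plus strand: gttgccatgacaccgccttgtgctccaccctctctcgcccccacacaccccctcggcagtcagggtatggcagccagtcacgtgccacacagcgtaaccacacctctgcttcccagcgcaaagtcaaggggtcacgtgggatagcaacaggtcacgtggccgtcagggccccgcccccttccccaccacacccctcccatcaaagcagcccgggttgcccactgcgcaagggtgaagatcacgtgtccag
The Top2a promoter held 4 CHR and 6 CCAAT matches and no E2F match, that of Mcm6 held 3 E2F and 2 CCAAT matches, that of Rrm1 held 2 CCAAT matches, and that of Cdk4 held none of these letters. In windows of 300 bases, from 250 before to 50 after the start, the CHR letters stood in 23 of the 30 promoters found for the mitosis list (76.7%) and in 5 of the 26 found for the replication list (19.2%), against 19.4% of all 27025 promoters in the table and 13.9% of the 12092 found for genes tested. The E2F letters stood in 10 of 26 replication promoters (38.5%) and 1 of 30 mitosis promoters (3.33%), against 2.42% of all promoters and 4.08% of those for genes tested. CCAAT boxes were found in 65.4% of the replication and 70% of the mitosis promoters, against 37.9% of all and 38.4% of those for genes tested. That share was not particular to division genes. It was 78.6% for MHC class I presentation, 72.7% for the priming genes and 66.7% for cholesterol genes, and lower in most other lists. A match is a run of letters and not evidence of binding.

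At the level of single libraries, Top2a, the topoisomerase that untangles chromosomes before they separate (GRCm38, chr11:98992943-99024189), stood at 348, 257 and 432 CPM at P7 and at 0.0701, 0.396, 0 and 0 CPM at P42. Its level at P10 was 246 CPM, between both ages. The fitted log2 fold change of Top2a was -11.36 ± 0.79 (SE), with an adjusted p of 3.0e-12 in edgeR, and its size depends on the few reads left at P42. Mki67, the antigen used to stain cycling cells, had 179, 133 and 161 CPM at P7, whereas the 4 P42 libraries held 4 reads in all. Cyclin A2 (Ccna2) fell from 184 ± 21 to 0.524 ± 0.547 CPM and Cdk1, the kinase that starts mitosis, from 233 ± 6.4 to 5.85 ± 2.83 CPM. Among replication genes, Mcm6, a subunit of the helicase, went from 292, 326 and 347 CPM to 30.2, 22.6, 23.5 and 28.4 CPM, a log2 fold change of -3.62 ± 0.36, and Pcna from 83.6 ± 8.06 to 21.1 ± 1.87 CPM. Rrm2, the regulated subunit of ribonucleotide reductase, was at 235 ± 29.2 CPM at P7 and 5 reads in all at P42, while the other subunit, Rrm1, stood at 37.5 ± 13.9 CPM at P42. Other members of the replication list with levels near 0 at P42 were the loading factor Cdc6, which had no read, Mcm10 and Chaf1a, at 21.4, 19.8 and 33.9 CPM at P7, and Uhrf1, at 73.9 CPM at P7 and 0.779 CPM at P42.

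Where the 7 libraries averaged 10 CPM or more, the 10 lowest fitted log2 fold changes rested on 0 to 3 reads at P42, so that their order is uncertain and the fitted values are no bounds. Ube2c, Birc5 and E2f8 of these 10 genes stand in the cell division lists and the other 7 in none of them. No read was found at P42 for Cdca3, a trigger of mitotic entry, for the spindle and kinetochore genes Kif18b, Spag5 and Cenpm, for Shcbp1, for Dtl, which directs the destruction of the licensing factor CDT1, or for the repressor E2f8. Against a floor of 3 reads in each P42 library, Cdca3 was at least 999-fold lower (92.1 ± 3.91 CPM at P7) and Cenpm at least 258-fold lower (23.8 ± 6.54 CPM). The remaining 3, Ube2c, Hmmr and Birc5, had 118, 106 and 161 CPM at P7, and 1, 1 and 3 reads in the 4 P42 libraries together. Ube2c marks cyclins for destruction, Hmmr organises the spindle and Birc5 is survivin, a subunit of the chromosomal passenger complex.

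Of 28 regulators of the cycle, 15 were called lower and 2 higher, with a median of -1.49. Among the E2F genes, E2f1 fell from 60.7 ± 8.67 to 1.41 ± 0.928 CPM and the repressor E2f7 from 18.3 ± 0.659 CPM to no read, at least 199-fold. Both cyclin E genes were called lower, Ccne1 from 36.7 to 0.359 CPM and Ccne2 from 61.7 to 1.78 CPM, although with the replicate block Ccne1 was not called (adjusted p = 0.057, edgeR). At P42, 1 library held 1.4 CPM of Ccne1 and the others at most 0.0323 CPM. Cdk4, the partner of cyclin D, fell less, from 311 ± 24.7 to 109 ± 9.17 CPM (log2 fold change -1.52 ± 0.11), and Ccnd1 from 91.5 ± 25.7 to 45.2 ± 13.8 CPM, a call that was lost in 8 of 15 alternative settings. Genes that hold cells back did not move as one group. The CDK inhibitors Cdkn1a and Cdkn2c fell by 3.27 and 3.04 on the log2 scale, and Rb1, the retinoblastoma protein, was at 56.4 ± 13.3 and 50 ± 12.3 CPM with overlapping libraries. The antiproliferative genes Btg1 and Btg2 rose, Btg1 from 66.2, 79.9 and 69.9 CPM to 189, 188, 189 and 201 CPM, and Btg2 by a log2 fold change of 1.75 ± 0.13, and since Btg2 is also a member of the dissociation list, the part of dissociation in it was not tested.

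**Figure D2:**
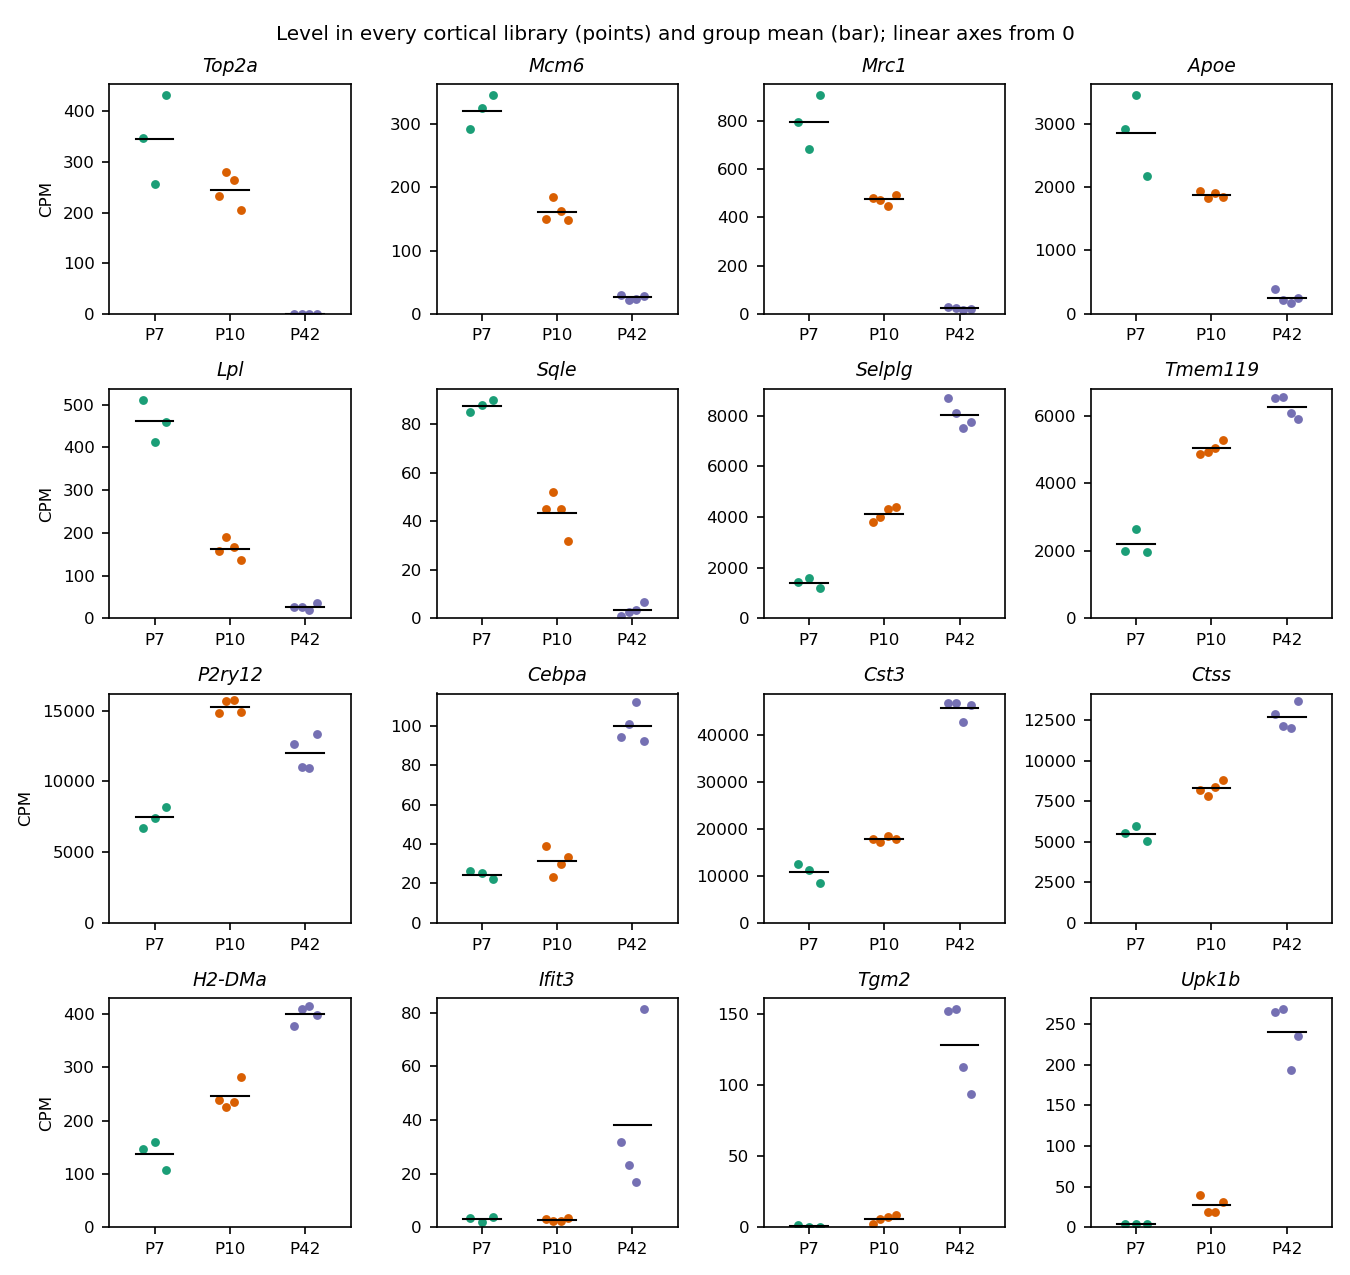
Level (CPM, linear axes from 0) of 16 genes in every cortical library at P7 (3 libraries), P10 (4) and P42 (4), with points for libraries and a bar for the group mean. Top2a, Mcm6, Mrc1, Apoe, Lpl and Sqle fell to P42, Selplg, Cebpa, Cst3 and Upk1b rose, P2ry12 was highest at P10, and 1 P42 library stood above the others for Ifit3.

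The 12 genes that the study names as known priming genes had 6 members called lower and 1 higher, with a median of -3.28. From its clustering of these genes the study reported none expressed in cortical microglia, unlike the RNA levels given here. By immunostaining it also found no SPP1, CLEC7A or CD206 protein there at any age, and RNA and protein are unlike measures. Mrc1, the mannose receptor CD206 (chr2:14229392-14332057), stood at 796, 684 and 905 CPM at P7, at 474 CPM on average at P10 and at 29.6, 22.5, 17.6 and 21.8 CPM at P42. Spp1, which encodes osteopontin, fell from 88.6 ± 8.99 to 4.8 ± 1.69 CPM, the growth factor Igf1 from 13 ± 2.36 to 1.1 ± 1.56 CPM, and Axl, a receptor of the GAS6 that coats dying cells, from 45.9 ± 6.53 to 11.2 ± 5.31 CPM. For Igf1, 1 P42 library held 3.43 CPM and the others at most 0.466 CPM. The member called higher was Clec7a, the beta-glucan receptor dectin-1, at 11.3 ± 0.559 CPM at P7 and 24 ± 8.12 CPM at P42 (log2 fold change 1.09 ± 0.27), and it lost its call in 7 of 15 alternative settings. Gpnmb and Itgax, both markers of activated microglia, were at 4.52 and 1.62 CPM at P7 and 0.537 and 5.26 CPM at P42 and were not called (adjusted p = 0.019 and 0.011 in edgeR).

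Of 20 genes linked to lipids and to damage-associated microglia, 7 were called lower and 0 higher, with a median of -0.55. Apoe, the main lipid carrier of the brain (chr7:19696109-19699188), had 2920, 3450 and 2170 CPM at P7 and 387, 217, 176 and 254 CPM at P42, so that the highest P42 library lay far below the lowest P7 library. With limma-voom the calls of Apoe, Spp1 and, among genes that rose, Cst3 were lost (adjusted p = 0.81, 0.79 and 0.98) at log2 fold changes of -3.59, -4.28 and 2.06. These sizes are close to the -3.46, -4.2 and 2.08 of edgeR, and the SEs of limma-voom were very large for these genes. Lpl, the lipase that releases fatty acids from lipoproteins, fell from 462 ± 49.3 to 27.8 ± 6.6 CPM (log2 fold change -4.05 ± 0.21) and was already at 163 CPM at P10. The fatty acid carrier Fabp5, the lectin Lgals1, the lipid droplet coat Plin2 and lysozyme (Lyz2) also fell, Lgals1 from 30.1 ± 1.34 to 2.66 ± 0.505 CPM and Lyz2 from 366 ± 15.3 to 119 ± 18 CPM. Tyrobp, the adaptor of TREM2, was at 1660 ± 380 and 1380 ± 110 CPM and was not called.

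Mrc1 is also a marker of border macrophages, which lie in the meninges and around vessels and can pass the same gate. Of 13 border macrophage markers 5 were called lower and 0 higher, and leaving out single libraries brought this down to as few as 2. Their summed level was 1000 to 1190 CPM at P7 and 184 to 206 CPM at P42, of which Mrc1 was the larger part at P7 and Stab1, at 269 and 171 CPM, the larger part at P42. Pf4, Cbr2 and Folr2 fell from 14.1, 12.4 and 3.31 CPM to 1.11, 0.805 and 0.194 CPM. At P42 the markers Cd163, Clec4n, Cd209f, Cd209b and Clec10a had no read. At P7 Cd163 stood at 1.59 CPM and Lyve1 at 0.971 CPM beside 795 CPM of Mrc1. The part of these cells in the levels of Mrc1 and of other genes that fell was not tested. Among markers of other cell types, 11 neuronal genes had a summed level of 11.4 to 21.1 CPM at P7 and 4.68 to 6.95 CPM at P42, and 10 monocyte genes 12.3 to 13.8 and 13.6 to 23.1 CPM. The sums were higher for 12 genes of the oligodendrocyte lineage, at 137 to 165 and 172 to 218 CPM, for 13 lymphocyte genes, at 117 to 147 and 53.5 to 93.9 CPM, and for 10 endothelial and pericyte genes, at 27 to 33.8 and 49.6 to 88.4 CPM. For 9 astrocyte genes the sum was 64 to 77.9 CPM at P7 and 219 to 283 CPM at P42, when nearly all of it was Slc1a3. The part of these cell types in the results was not tested. Slc1a3, listed as an astrocyte gene, rose from 40.3 ± 7.41 to 248 ± 29.5 CPM, while the astrocyte markers Aqp4 and Gjb6 had no read at P42. Cxcr2, a neutrophil chemokine receptor, went from 6.3, 6.96 and 11.9 CPM to no read in any P42 library, at least 90.9-fold lower, and the neutrophil genes S100a9, Ly6g and Elane had no read at P7.

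Cholesterol genes were called in both directions. Cells make cholesterol through the SREBP-2 programme and export it through ABC transporters that are targets of the LXR receptors. Of 20 genes 9 were called lower and 2 higher, with a median of -1.05. Squalene epoxidase (Sqle) fell from 87.6 ± 2.56 to 3.36 ± 2.48 CPM, Cyp51 from 150 ± 13.9 to 19 ± 5.3 CPM, and Srebf2, which encodes SREBP-2 itself, from 102 ± 17.2 to 21.3 ± 1.56 CPM. Both genes called higher are known LXR targets. Abcg1, an exporter, rose from 65.3 ± 11.9 to 206 ± 17.3 CPM, and Mylip, which encodes a ubiquitin ligase, from 105 ± 28.2 to 317 ± 35.9 CPM. Abca1, the other exporter, was at 223 ± 45.2 and 287 ± 29.3 CPM (adjusted p = 0.21).

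Receptors for dying cells and debris were called in both directions too, with 3 called higher and 4 lower of 23 (median -0.07). Gas6, the bridging ligand of the TAM receptors, fell from 865 ± 216 to 150 ± 20.6 CPM and its receptor Axl fell with it, whereas Mertk, the other TAM receptor of microglia, rose from 206, 179 and 268 CPM to 707, 594, 667 and 705 CPM (log2 fold change 1.62 ± 0.13). Dab2, an endocytic adaptor, fell from 283 ± 40.2 to 28.8 ± 9.94 CPM, the integrin Itgb5 rose by a log2 fold change of 1.04 ± 0.08, and the LPS co-receptor Cd14 rose from 247 ± 52.9 to 646 ± 40.1 CPM. The fourth member called lower, the endocytic receptor Lrp1 (log2 fold change -1.01 ± 0.18), lost its call in 11 of 15 alternative settings. Of 5 phagocytosis genes that the study names as examples from these samples, which are no independent evidence of direction, Scarb1, a scavenger receptor for HDL, was called, falling from 131 ± 20.2 to 33.3 ± 8.76 CPM. Cd36 was at 4.82 CPM at P7, with 1.81 CPM in 1 P42 library and no read in the others.

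**Figure D3:**
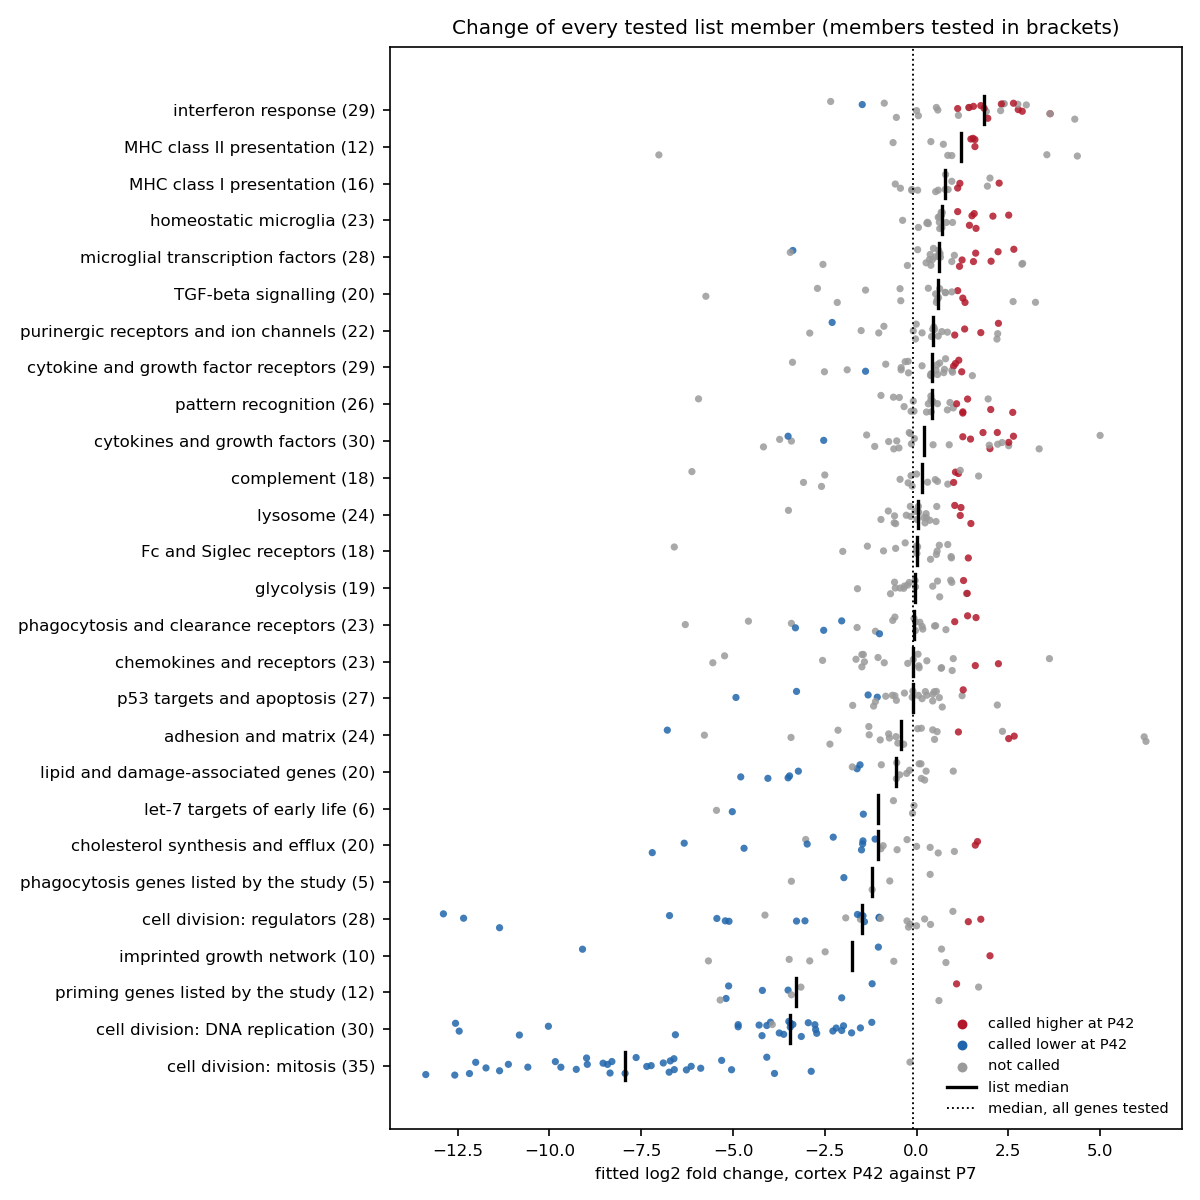
Fitted log2 fold change (x axis, Cx P42 against P7) of every tested member of 27 gene lists (y axis, number of members tested in brackets). Red and blue points are members called higher and lower at P42, grey points were not called, the bar is the list's median and the dotted line the median of all genes tested (-0.09); the mitosis list has the lowest median (-7.94) and the interferon list the highest (1.84).

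Of 23 homeostatic genes 7 were called higher and 0 lower, with a median log2 fold change of 0.68, and 16 were not called. Selplg, which encodes the adhesion ligand PSGL-1 (chr5:113818536-113832644), stood at 1450, 1590 and 1190 CPM at P7, at 4140 CPM at P10 and at 8680, 8100, 7520 and 7770 CPM at P42, a log2 fold change of 2.51 ± 0.10 with an adjusted p of 2.2e-17 in edgeR. Cst3, the protease inhibitor cystatin C, went from 12700, 11300 and 8460 CPM to 46900, 47000, 42900 and 46600 CPM. Per kilobase it had 36200 RPKM at P42, against 4710 for P2ry12 and 2710 for Tmem119. Tmem119, a marker that separates microglia from other macrophages, rose from 2200 ± 386 to 6280 ± 325 CPM and was at 5040 CPM at P10. The fructose transporter Slc2a5, the adhesion receptor Adgrg1 and Tgfbr1 rose by log2 fold changes of 1.44 ± 0.13, 1.57 ± 0.10 and 1.12 ± 0.13.

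Most of the 16 others had positive log2 fold changes under the limit of 1. The ADP receptor P2ry12 was at 6710, 7410 and 8220 CPM at P7 and 12600, 11000, 10900 and 13300 CPM at P42, a log2 fold change of 0.69 ± 0.10, and its P10 mean of 15300 CPM lay above both. Cx3cr1, the fractalkine receptor, and Csf1r, the receptor on which microglia depend to survive, had log2 fold changes of 0.67 ± 0.06 and 0.63 ± 0.07, again without overlap of the libraries, whereas Fcrls was at 0.05 (adjusted p = 0.78, edgeR) and Ltc4s, a leukotriene synthase, at -0.38 (0.063).

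Among 28 microglial transcription factors 7 were called higher and 1 lower (median 0.61). Cebpa, a factor of the myeloid lineage, rose from 24.5 ± 2.16 to 99.8 ± 8.83 CPM, the interferon regulatory factors Irf5 and Irf8 from 163 ± 22.4 and 354 ± 41.4 to 477 ± 22.9 and 798 ± 30.5 CPM, and Sall3 from 32.7 ± 4.86 to 77.2 ± 10.6 CPM. Sall1, which defines microglial identity, was at 279 ± 35.4 and 429 ± 29.9 CPM (log2 fold change 0.62 ± 0.10), and Spi1, which encodes PU.1, at 375 ± 79.7 and 448 ± 18.9 CPM with overlapping libraries. Klf2, a factor of quiescent leukocytes, was the member called lower, at 20.4, 30.5 and 13.1 CPM at P7 and 1.93, 1.45, 2.3 and 2.55 CPM at P42. Egr1 rose from 4.31 ± 1.26 to 20.1 ± 10.5 CPM. It is also a dissociation gene, of which 6 of 18 were called higher, Jun, Junb, Atf3 and Socs3 among them, and the part of dissociation in Egr1 was not tested.

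TGF-beta signalling had 3 of 20 members called higher and 0 lower (median 0.58). They were the receptor Tgfbr1, the feedback inhibitor Smad7, which rose from 20.1 ± 2.04 to 50 ± 5 CPM, and the co-repressor Tgif1, from 20.8 ± 2.95 to 49.9 ± 8.03 CPM. The ligand Tgfb1 and the second receptor Tgfbr2 had log2 fold changes of 0.54 ± 0.13 and 0.79 ± 0.09 and were not called.

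Lysosomal proteases had log2 fold changes of both signs. Of 24 lysosomal genes 4 were called higher and 0 lower, with a median of 0.05. Cathepsin S (Ctss) rose from 5490 ± 468 to 12700 ± 772 CPM, cathepsin H (Ctsh) from 499 ± 90 to 1390 ± 44.5 CPM and cathepsin D (Ctsd) from 7870 ± 1150 to 16200 ± 325 CPM, together with Tfeb, the factor that drives lysosomal genes, from 25.2 ± 4.83 to 57.5 ± 6.25 CPM. Cathepsins B and L went the other way without passing the fold limit, Ctsb from 8800, 11300 and 9270 to 4870, 4870, 5140 and 5130 CPM (log2 fold change -0.97 ± 0.07) and Ctsl by -0.77 ± 0.07. Of 18 complement genes 3 were called higher, C1qa (3820 ± 566 to 8000 ± 211 CPM), the anaphylatoxin receptor C5ar1 and Itgb2, the beta chain of complement receptor CR3. Without P7 replicate 3 the count was 1. C1qb and C1qc, the other chains of C1q, had log2 fold changes of 0.85 ± 0.09 and 0.51 ± 0.10.

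Antigen presentation rose in part. Of 12 genes of MHC class II presentation 4 were called higher and 0 lower (median 1.22). All 4 encode chains of proteins that carry out or regulate peptide loading. They were H2-DMa (146, 160 and 108 CPM at P7 and 378, 410, 415 and 399 CPM at P42), H2-DMb1, H2-Oa and H2-Ob. The class II molecule gene H2-Ab1 and the invariant chain Cd74 were at 17.3 ± 5.8 and 14.7 ± 3.25 CPM at P7 and 22.7 ± 3.98 and 26.5 ± 3.85 CPM at P42 and were not called. In MHC class I 3 of 16 were called higher, H2-K1 (log2 fold change 1.18 ± 0.11), the loading factor Tapbp and the non-classical H2-T23, from 50.1 ± 11.2 to 238 ± 19.8 CPM. Reads of H2 genes can be shared between near copies, and the authors' counting discarded reads with several matches, so these levels are uncertain.

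Interferon-stimulated genes had the highest median of the lists, 1.84 over 29 genes, of which 11 were called higher and 1 lower. Rtp4 rose from 12.9, 19 and 19.6 CPM to 130, 108, 62.8 and 127 CPM, the transcription factor gene Irf9 by a log2 fold change of 1.43 ± 0.18, and the RNA sensor Ddx58 (RIG-I) from 15.9 ± 4.35 to 61.3 ± 8.26 CPM. P42 libraries differed for the strongest responders. Ifit3 stood at 3.33, 1.96 and 3.95 CPM at P7 and at 31.7, 23.2, 16.7 and 81.5 CPM at P42, and replicate 4 was also the highest for Isg15, Usp18 and Ifitm3. Isg15 lost its call without that library (log2 fold change 2.19 instead of 2.77) and without P7 replicate 3 (2.72). Irf7, the amplifier of the response, was at 4.43 ± 2.09 and 16.5 ± 9.49 CPM and was not called (adjusted p = 0.023). The member called lower was Ifi27l2a, from 41.1 ± 15.8 to 14.7 ± 9.23 CPM, a call lost in 6 of 15 alternative settings.

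Pattern recognition genes had 6 of 26 called higher and 0 lower (median 0.41). Tlr12 and the sensor of double-stranded RNA Tlr3 rose from 13.4 ± 3.48 and 35.3 ± 8.68 CPM to 82.2 ± 16.9 and 143 ± 15 CPM, and the lectin Clec4a3 by a log2 fold change of 1.26 ± 0.15. Tlr4, the LPS receptor, was at 119 ± 14.7 and 160 ± 11.7 CPM. Fcgr2b, the inhibitory Fc receptor, was the member called among 18 Fc and Siglec receptors, at 189, 193 and 202 CPM at P7 and 528, 517, 524 and 505 CPM at P42.

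Among signals that microglia send, 7 of 30 cytokines and growth factors were called higher and 2 lower (median 0.19, or 0.15 with genes near 0 reads set to their limits). The PDGF ligands Pdgfb and Pdgfa rose from 29 ± 4.56 and 3.93 ± 1.37 CPM to 102 ± 4.63 and 18.1 ± 4.38 CPM, Il16 from 105 ± 6.36 to 252 ± 28.9 CPM and Il15 from 10.6 ± 1.9 to 29.2 ± 3.42 CPM, while the members called lower were Igf1 and Gas6. In 23 chemokine genes 2 were called, Cxcl16 (30.2 ± 3.7 to 91.7 ± 13.6 CPM) and Ccl4, an inflammatory chemokine, at 20.7, 13.3 and 15.3 CPM at P7, 6.33 CPM at P10 and 42.4, 50.6, 121 and 93.2 CPM at P42. On the receiving side 4 of 29 receptors were called higher and 1 lower (median 0.41). They were Il10ra, the receptor of an anti-inflammatory cytokine, Il21r, Csf3r and Ifnar2, with log2 fold changes of 1.06 ± 0.08, 1.15 ± 0.14, 1.23 ± 0.14 and 1.01 ± 0.09, and Csf2ra, the GM-CSF receptor, which fell from 72.1 ± 24.5 to 27.5 ± 2.97 CPM.

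Of 22 purinergic receptors and ion channels 4 rose and 1 fell (median 0.46). The ectonucleotidase Entpd1 (CD39), which breaks down ATP, rose from 591 ± 44.5 to 1220 ± 60.9 CPM, the proton channel Hvcn1 from 49.4 ± 7.74 to 123 ± 5.26 CPM, and the channels Kcnj2 and Trpm2 by log2 fold changes of 1.75 ± 0.43 and 2.23 ± 0.52. Kcnj2 lost its call in 4 of 15 alternative settings, and Trpm2 lost it without P7 replicate 1 or 2. Clic4, a chloride channel protein, fell from 51.7 ± 5.07 to 10.5 ± 2.24 CPM. In glycolysis 2 of 19 were called higher, the phosphofructokinase Pfkl and the lactate exporter Slc16a3, with a list median of -0.04, and in adhesion and matrix 3 of 24 were called higher and 1 lower (median -0.43), with the membrane protease Mmp14 at 8.37 ± 1.97 and 52.9 ± 7 CPM. Of 27 p53 targets and apoptosis genes 4 were called lower and 1 higher (median -0.10). They include Ccng1, from 134 ± 25.9 to 53.6 ± 15.4 CPM, the pore former Bax, from 88 ± 16.4 to 41.9 ± 4.69 CPM with a call lost in 5 of 15 alternative settings, and the inhibitor Birc3, which rose from 18.6 ± 2.68 to 44.6 ± 4.23 CPM.

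Among 6 tested let-7 targets of early life 2 were called lower and 0 higher, with a median of -1.04 (-0.68 with genes near 0 reads set to their limits). Igf2bp3, an mRNA-binding protein of the fetal state that is a known target of let-7 microRNAs, stood at 57.9, 70.1 and 64.2 CPM at P7, 43.8 CPM at P10 and 1.37, 2.51, 1.63 and 2.33 CPM at P42 (log2 fold change -5.02 ± 0.52), and Hmga1, a chromatin architectural protein, fell from 22.7 ± 6.6 to 8.29 ± 0.966 CPM. In the imprinted growth network 2 of 10 were called lower and 1 higher, with a median of -1.77 (-0.99 with such limits). The non-coding RNA Meg3 had 5.97 ± 1.89 CPM at P7 and 1 read in all at P42, Gnas went from 99.8 ± 11 to 48.5 ± 3.77 CPM, and the CDK inhibitor Cdkn1c rose from 2.99 ± 0.362 to 12 ± 1.29 CPM.

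The largest increases were of genes outside most of these lists. Tgm2, tissue transglutaminase, which crosslinks proteins (chr2:158116402-158146436), stood at 1.92, 0.598 and 0.368 CPM at P7, 6.02 CPM at P10 and 152, 154, 113 and 93.8 CPM at P42, a log2 fold change of 7.06 ± 1.10 (adjusted p = 1.6e-05, edgeR). Upk1b, a tetraspanin known from the urothelium (chr16:38773184-38800203), went from 4.23, 4.47 and 4.69 CPM through 27 CPM at P10 to 264, 269, 193 and 235 CPM. Il7r, the receptor of interleukin-7 on lymphocytes, rose from 4.3 ± 0.233 through 34.3 ± 7.36 at P10 to 77.5 ± 19.1 CPM. The junction protein Jam3, the melanosome adaptor Mlph, Csmd3, which has complement-like domains, the sulfotransferase Chst8, the lipogenic factor Thrsp and the phosphodiesterase Pde2a rose by log2 fold changes of 5.23 ± 0.83, 5.23 ± 0.69, 4.68 ± 0.49, 4.61 ± 1.18, 4.02 ± 0.29 and 3.78 ± 0.69, and Ifit3 completed the 10. At P10 Jam3 and Pde2a were still at 2.44 and 2.00 CPM, against 58 and 23.4 CPM at P42, while Thrsp had reached 18.3 of 86.2 CPM. With the replicate block Pde2a was not called (adjusted p = 0.02, edgeR). Chst8 lost its call when any of the 3 P7 libraries or P42 replicate 3 was left out.

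Whether the cortical change differed from that in the other regions was tested as a difference of changes. Against the CC 111 genes were called, 0.531% of those tested, of which 76 had the higher log2 change in Cx. Klf2 fell in Cx and was not called in the CC (difference of the log2 changes -3.93 ± 0.40, adjusted p = 2.3e-07 in edgeR), being at 16.8 ± 1.27 CPM at P7 and 24.7 ± 10.4 CPM at P42 in the CC. Nes, which encodes nestin, Ezh2, the methyltransferase of the Polycomb complex, Emp3 and Fxyd5 fell more steeply in Cx, with Nes going from 70.2 ± 8.68 to 2.88 ± 2.47 CPM against 29.8 ± 9.02 to 13.5 ± 7.55 CPM in the CC. The differences the other way were led by genes of high level in the P7 CC. Gpnmb was at 828 ± 63.3 CPM in the P7 CC and 4.52 ± 2.77 CPM in P7 Cx, and at 0.282 ± 0.167 and 0.537 ± 0.868 CPM at P42 (difference 8.39 ± 1.59). Hpse, which encodes heparanase, had 215 ± 22.7 CPM in the P7 CC and 6.62 ± 1.11 CPM in P7 Cx, and Itgax had 118 ± 22.9 and 1.62 ± 0.775 CPM. Racgap1, a regulator of cytokinesis, went from 179 to 2.98 CPM in Cx and from 114 to 0.155 CPM in the CC (difference 3.49 ± 0.76). Pde2a rose in Cx and went from 38.4 ± 3.76 to 20.7 ± 7.92 CPM in the CC (difference 4.67 ± 0.87). Of the lists, lipid and damage genes had 7 members with a called difference, glycolysis 5, lysosome and transcription factors 4 each, and DNA replication and mitosis none. When 1 of the 14 libraries was left out in turn, Fxyd5 lost its call in 12 fits, Racgap1 in 11, Nes in 3, and Hpse and Gpnmb in 1 each, with Gpnmb at 6.28 (adjusted p = 0.26 in edgeR) without Cx P42 replicate 1. With the replicate block the differences of Gpnmb, Hpse and Nes were 8.23, 7.46 and -3.5. They were not called (adjusted p = 0.014, 0.017 and 0.025 in edgeR). With limma-voom the differences of Gpnmb, Hpse, Racgap1, Fxyd5 and Nes were 6.88, 6.09, 3.49, -1.93 and -3.82 and were not called (adjusted p = 0.14, 0.14, 0.058, 0.019 and 0.01, the last above the limit before rounding). With only the groups compared, Pde2a, Nes, Fxyd5, Hpse and Racgap1 lost their calls against the CC. Their differences were then 4.68, -3.45, -1.93, 8.17 and 3.51 (adjusted p = 0.021, 0.096, 0.084, 0.032 and 0.17 in edgeR). Racgap1 was also not called with no filter beyond genes without reads (adjusted p = 0.015 in edgeR).

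Against the Cb 100 genes were called, 0.478%, of which 59 had the higher log2 change in Cx. Klf2 rose in the Cb, from 21.7 ± 2.57 to 45 ± 13 CPM (difference -4.42 ± 0.40). Of the 20 cholesterol genes 6 had a called difference. The division genes Mki67, Dlgap5 and Casc5 (Knl1, a kinetochore scaffold) fell further in Cx. In P42 Cb they were at 0.756 ± 1.03, 0.854 ± 1.12 and 0.583 ± 0.769 CPM, with libraries from 0.207 to 2.3, 0 to 2.51 and 0 to 1.64 CPM, whereas P42 Cx held 4, 1 and 3 reads in all. Replicate 3 of P42 Cb was the highest for all 3 genes, and it also held 170 spike-in reads against 4 to 23 in the other 32 libraries. Without it the differences were -4.34, -5.57 and -3.94, and those of Mki67 and Casc5 were not called (adjusted p = 0.029 and 0.047 in edgeR), and the part of that library was not tested further. Casc5 lost its call in 11, Itgax in 13 and Mki67 in 2 of the 14 fits that left out 1 library. Mki67 also lost it without Cb P7 replicate 3, at a difference of -5.81. With limma-voom the differences of Mki67, Casc5 and Itgax were -4.99, -3.21 and 3.01 and were not called (adjusted p = 0.036, 0.14 and 0.036). With only the groups compared, Dlgap5, Mki67, Casc5 and Itgax lost their calls (adjusted p = 0.028, 0.011, 0.084 and 0.011 in edgeR). Their differences were then -7.04, -5.97, -5.3 and 3.07. Itgax was also not called with sex as a covariate or the replicate block (adjusted p = 0.011 and 0.01 in edgeR, the last above the limit before rounding). Upk1b rose in both regions, to 240 ± 34.9 CPM in Cx and 36.4 ± 12.1 CPM in the Cb. Lag3, an inhibitory receptor for MHC class II, rose in Cx from 11.4 ± 1.17 to 55.8 ± 3.68 CPM and fell in the Cb from 56.4 ± 4.75 to 21.1 ± 5.61 CPM. Pde2a, Itgax and Pecam1, an adhesion protein of endothelium and leukocytes, had differences of 4.95 ± 0.88, 3.03 ± 0.65 and 2.87 ± 0.47. Itgax and Pecam1 were not called in Cx. Their log2 changes were 1.69 and 0.97 in Cx and -1.33 and -1.9 in the Cb. Both tests use the same Cx libraries, so that the naming of Klf2, Pde2a and Itgax in both is not 2 independent results.

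**Figure D4:**
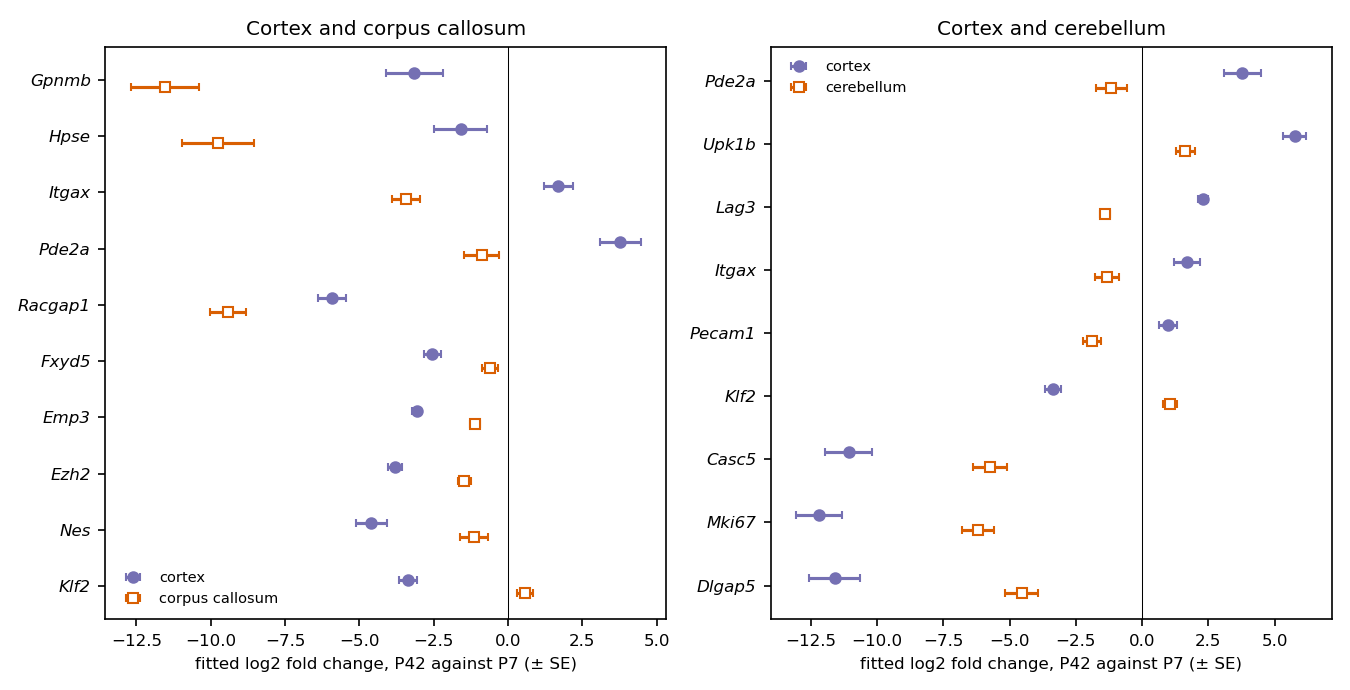
Fitted log2 fold change, P42 against P7 (x axis, point ± SE), of genes called in each test between regions (y axis), for cortex (filled circles) and the other region (open squares: corpus callosum on the left, cerebellum on the right). Klf2 fell in cortex and not in the other regions, and of the regions plotted Pde2a was called higher only in cortex.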

How the data were processed

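Cortical microglia of postnatal days 7, 10 and 42 and microglia of the corpus callosum and cerebellum were analysed from a deposited table of raw counts per gene, whole numbers that the authors made from RNA amplified with a template-switching kit. The submitters' processing notes name CASAVA 1.8.2, STAR 2.5.2b, featureCounts 1.6.2, limma 3.38 and GRCm38. Reads matching several places or features were discarded by the authors. Strand setting and annotation release are not given in the sources used here. The table held 48587 genes, and 92 spike-in sequences were left out of library sizes and tests. Of the genes, 17212 without reads and the 10458 genes with the lowest summed counts were left out and 20917 were tested.

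Counts were tested with edgeR 4.0.16 (R 4.3.3, quasi-likelihood, TMM factors, robust) in 1 model of 33 libraries and 9 groups, with Benjamini-Hochberg adjustment over all genes tested. The authors' methods use limma, which was run as an alternative. SE is the size of the log2 fold change divided by the square root of F, and levels are CPM on TMM-scaled library sizes. RPKM divides CPM by exon length. A level of 0 was set against a floor of 3 counts per library for bounds, and such limits cover counting error only. The script was tested on simulated data. Named genes were list members, favouring the called members of largest change with at least 10 CPM, the 10 largest increases and decreases by fitted log2 fold change with at least 10 CPM and no overlap, and up to 5 genes a direction for each test between regions. Members and lists were chosen with earlier results of these data known. Alternatives were limma-voom (limma 3.58.1), DESeq2 1.42.0, other size factors, filters, sex, sample sets, a replicate block and leaving out each library. In the Cx comparison the replicate block was fitted on the Cx P7 and P42 libraries only. It joined same-numbered libraries of different ages, whose sex labels differed and which cannot share an animal, and left P42 replicate 4 without a partner. In the tests between regions the block was age and number together, over all 33 libraries. Some items are not reported here.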

Additional observations from a re-analysis of the deposited data

Results flagged for a closer look

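In groups of 4 cortical libraries, 18 of 332 combinations of a named gene and an age (5.42%) had a library farther from the others than the 95% limit of Dixon's test, where chance gives about 1 in 20. At P42 the highest library stood apart for Ccna2 (1.34 CPM), Ccnb2 (0.292 CPM), Ccne1 (1.4 CPM), Btg1 (201 CPM), Igf1 (3.43 CPM), Gpnmb (1.82 CPM), Cd36 (1.81 CPM), Dab2 (43.7 CPM), Ctsd (16600 CPM) and C1qc (10600 CPM). The lowest P42 library stood apart for Cyp51 (11.1 CPM), Cst3 (42900 CPM) and Il15 (24.1 CPM). At P10 the highest library stood apart for Plin2 (79.6 CPM), Irf5 (261 CPM), Cd74 (21.3 CPM) and Bax (73.6 CPM), and the lowest for Mertk (392 CPM). P42 replicate 1 held 5 of these 18.

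The change from P7 to P42 differed between Cx and the CC by the tested difference of log2 changes for Klf2 (-3.93), Nes (-3.46), Ezh2 (-2.33), Emp3 (-1.97), Fxyd5 (-1.94), Gpnmb (8.39), Hpse (8.17), Itgax (5.13), Pde2a (4.67) and Racgap1 (3.49). Between Cx and the Cb it differed for Dlgap5 (-7.06), Mki67 (-5.99), Casc5 (-5.33), Klf2 (-4.42), Pde2a (4.95), Upk1b (4.12), Lag3 (3.71), Itgax (3.03) and Pecam1 (2.87). Several of these calls were not stable. Of 14 fits that left out 1 library, Itgax against the Cb lost its call in 13, Fxyd5 in 12, and Casc5 and Racgap1 in 11. The others lost theirs in 3 or fewer.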

How the results depend on the processing

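The count of 1496 called genes in Cx stayed between 1363 (with the replicate block) and 1905 (DESeq2) under the other settings, and between 1256 and 1402 when 1 library was left out. The 111 genes whose change differed from the CC became 331 with DESeq2 and 50 with only the groups compared, and 70 to 133 when 1 library was left out, the lowest without CC P7 replicate 3. The 100 that differed from the Cb became 238 with DESeq2 and 83 to 106 when 1 library was left out. Deviations of same-numbered libraries had correlations of -0.05 to 0.07 between Cx and the CC or Cb at the same age. Between P7 and P42 Cx, which cannot share an animal, the correlations were -0.07 to 0. Same-numbered libraries of an age had the same sex label in Cx, the CC and the Cb. Whether they came from the same animals is not stated, and the same-age correlations alone gave no sign of it. The replicate block gave 93 and 98 genes in the tests between regions. Rb1 ranged from -0.30 to 0.05 when 1 library was left out, changing sign without Cx P7 replicate 3 (-0.17 with all). Over named genes and settings other than leaving out 1 library, 1480 results stayed on the same side of the limits, 54 lost a call and 9 gained one. For the interferon list DESeq2 called 17 members higher instead of 11. Beyond the calls named above, Cbr2 lost its call in 6 of 15 settings, Folr2 in 4, C5ar1, Gnas and Socs3 in 3, Ctsd and Mitf in 2, and C1qa, Ccl4, Igf1, Ifnar2, Itgb5, Junb and Uhrf1 in 1. Of genes not called, Itgax gained a call in 4 of 15 settings, Orc1 and Myc in 3, and Gpnmb, Irf7, Cd36 and Ctsb in 1. The cause of these changes was not tested. Depth limits genes near 0 reads at P42, where fitted values such as those of Top2a and, in the test against the Cb, of Mki67, Dlgap5 and Casc5 depend on few reads and are no bounds.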
